A study of Saccharomyces cerevisiae with 49 samples.

Results

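Autophagy genes and vacuolar proteases of budding yeast were chosen as all genes whose symbol in the platform annotation began with ATG and a number, plus PEP4, PRB1, PRC1, CPS1, PHO8, DAP2, VPS15, VPS30 and VPS34. They numbered 43 of the 5449 S. cerevisiae genes with a probe set of their own, 34 with an ATG name and 9 with another name. Each had 1 probe set, and all 43 passed the filter on dim probe sets. The study followed the haploid strain CEN.PK113-7D, mating type a (MATa), in a fermentor fed continuously with medium of glucose, ammonium sulfate and yeast extract. The labels describe a culture that oscillated with a period of about 4 h, and a sample was taken every 5 min over 1 cycle with an overlap, 49 in all. No mutant, drug or change of medium separates the samples, which differ by the phase angle that the labels give them. The 49 samples, 1 Affymetrix Yeast Genome 2.0 array each, fall into 60-degree windows: 8 samples in each of phase 0-60, 60-120, 120-180, 180-240 and 240-300, 7 in phase 300-360, and 2 of the next cycle, called the second pass.

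Autophagy is the route by which a yeast cell wraps cytoplasm or whole organelles in a double membrane, the autophagosome, and delivers them to the vacuole, where hydrolases break them down. A kinase complex around Atg1 starts the process, a phosphatidylinositol 3-kinase complex marks the membrane, vesicles carrying Atg9 supply lipid, and a conjugation system attaches the ubiquitin-like protein Atg8 to the growing membrane. Receptors that bind Atg8 select the cargo. In the vacuole proteinase A, the product of PEP4, starts a cascade that activates the other proteases. The pathway is known for its induction when yeast is starved.

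The labels do not say which event defines phase 0, and they name 2 fermentor models without saying which held this culture. Because 1 culture was sampled again and again, a p-value reflects the spread of its samples around the fitted window means or curve. That spread includes steady change inside a window, and the tests treat successive samples as independent. A p-value here says nothing of how cultures differ. The signal is bulk: a lower signal in every cell and a loss in part of the cells cannot be told apart. Array medians ran from 1449.8 to 2582 array units, and each array was set to the same median before any comparison. Both extremes lay in phase 0-60, the lowest at 25 degrees and the highest at 47.97 degrees. The order and length of the dip were read from the scaled values only. For TDH1, a control for RNA length, the 3' probe set exceeded the 5' probe set by 0.316 ± 0.166 (log2, mean and SD of 8 arrays) in phase 0-60 and by 0.0656 ± 0.0713 (41 arrays) elsewhere, and 5 of the 8 arrays of phase 0-60 exceeded the highest of the others, 0.243. For the like controls ACT1, SPT15 and RIP1 the means were 0.327, 1.098 and 0.275 in phase 0-60 and 0.227, 0.993 and 0.218 elsewhere. The ranges of these controls overlapped between phase 0-60 and the other arrays. For ACT1, however, the arrays at 17.35 degrees (0.597) and 25 degrees (0.425) exceeded the highest of the others, 0.386. As markers of mating type, the 7 a-specific genes had median signals of 1011 to 8820, and the 4 alpha-specific genes had 85.8 to 1280, so the alpha-specific genes also lay above background. The median signal of probe sets for genes of another yeast species, which serves as background, was 6.2.

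**Figure D1:**
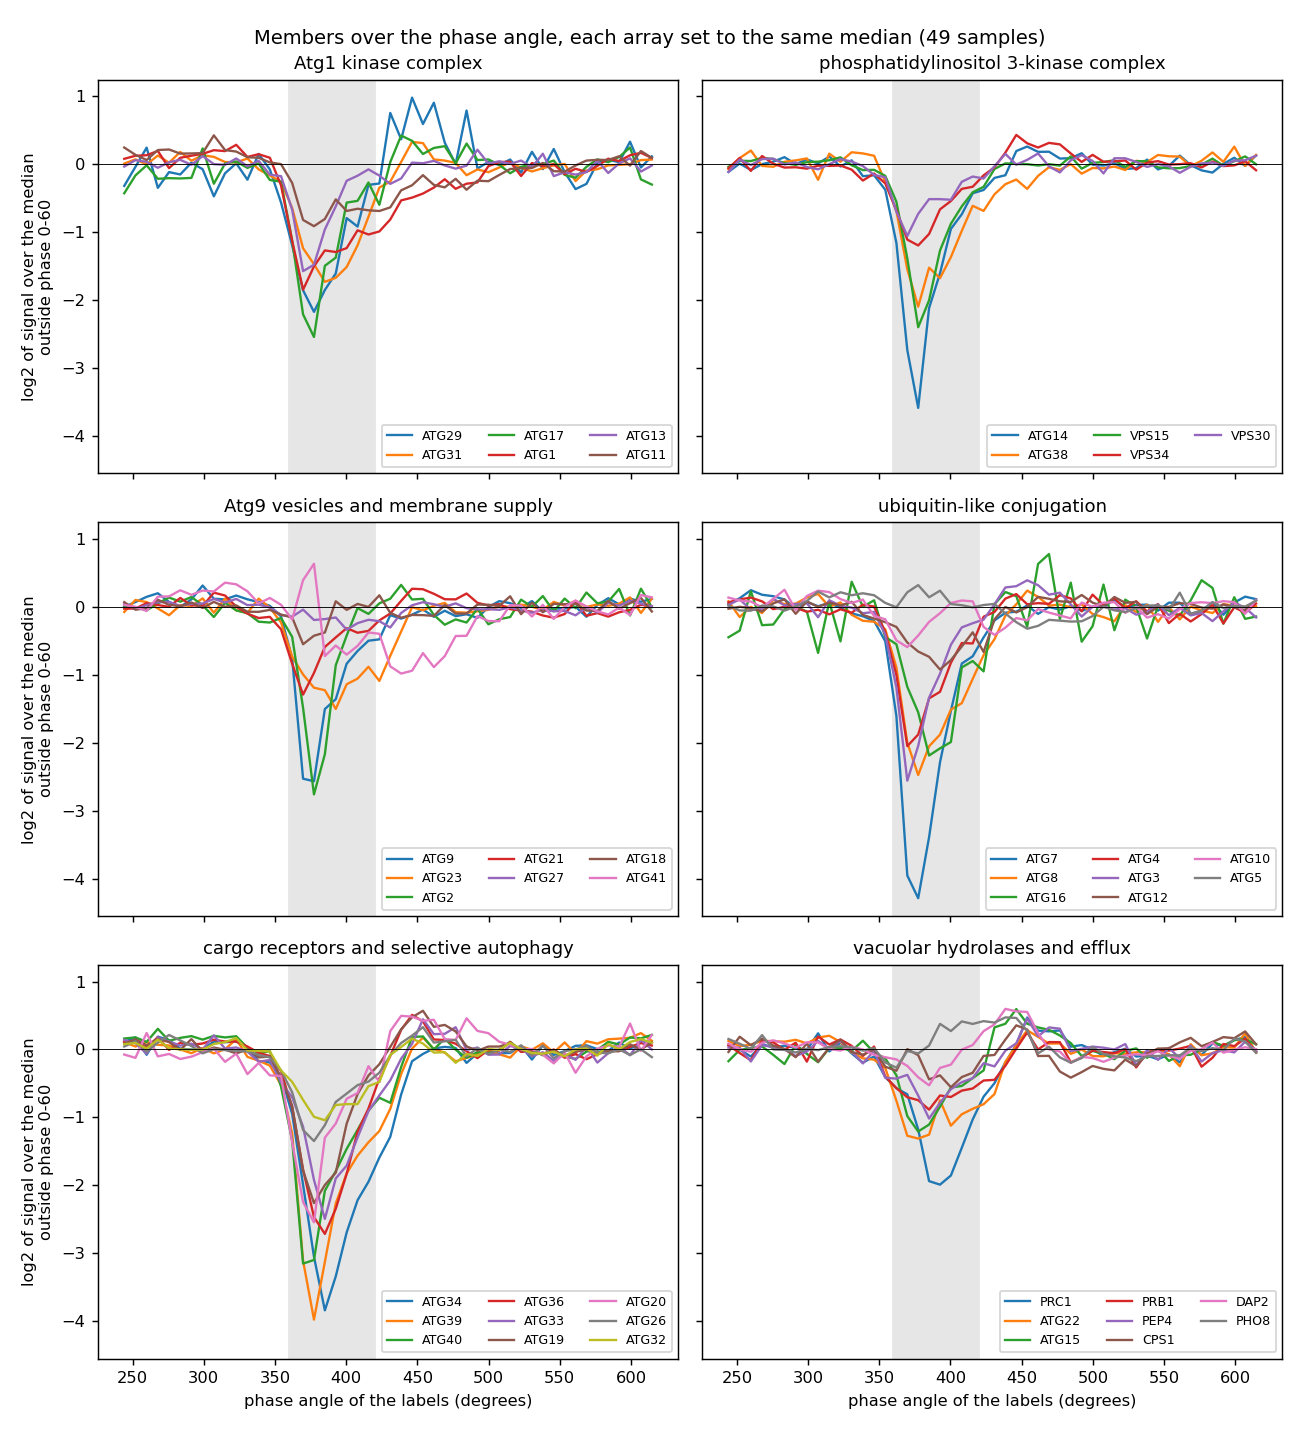
Signal of the 43 genes over the phase angle of the labels (x axis, degrees, where 360 and above is the next cycle), drawn as log2 of the signal over each gene's own median outside phase 0-60 (y axis) for 49 samples, with 1 panel per role and phase 0-60, which starts at 360 on this axis, shaded. Most lines dip together inside the shaded window, ATG7 and ATG39 deepest, and ATG41 and ATG5 do not.

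Most autophagy and vacuolar protease transcripts had their low point in phase 0-60. Of the 43 genes 40 were lower there than in the mean of the other 5 windows, 1 was higher and 2 did not pass the test, with 43.2% of all probe sets lower and 39.8% higher (limma, 47 samples, adjusted over 5470 probe sets). The median log2 difference of the 43 was -1.04, a 2.05-fold lower signal, against -0.03 for all probe sets. A fall of at least 2-fold was seen in 24 genes, against 11.6% of all probe sets. In 41 genes the lowest of the 49 samples lay in phase 0-60, against 49.5% of all probe sets, and in 15 genes all 8 samples of the window lay below the lowest of the 39 others, against 7.18%. Without the 5 arrays with a high TDH1 ratio, a setting chosen after the data were seen, 39 genes were still lower and the median log2 difference was -0.78. Those 5 arrays were the successive samples from 17.35 to 47.97 degrees, which left the samples at 2.04, 9.7 and 55.62 degrees. A high TDH1 ratio and the position in the dip thus cannot be told apart. All values below are signals in array units, given for each gene as the lowest, the median and the highest sample of a group, with 8 samples in phase 0-60 and 39 in the other windows of the first pass. Fold changes and log2 differences are of phase 0-60 against the mean of the other 5 windows, with limma's adjusted p.

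**Figure D2:**
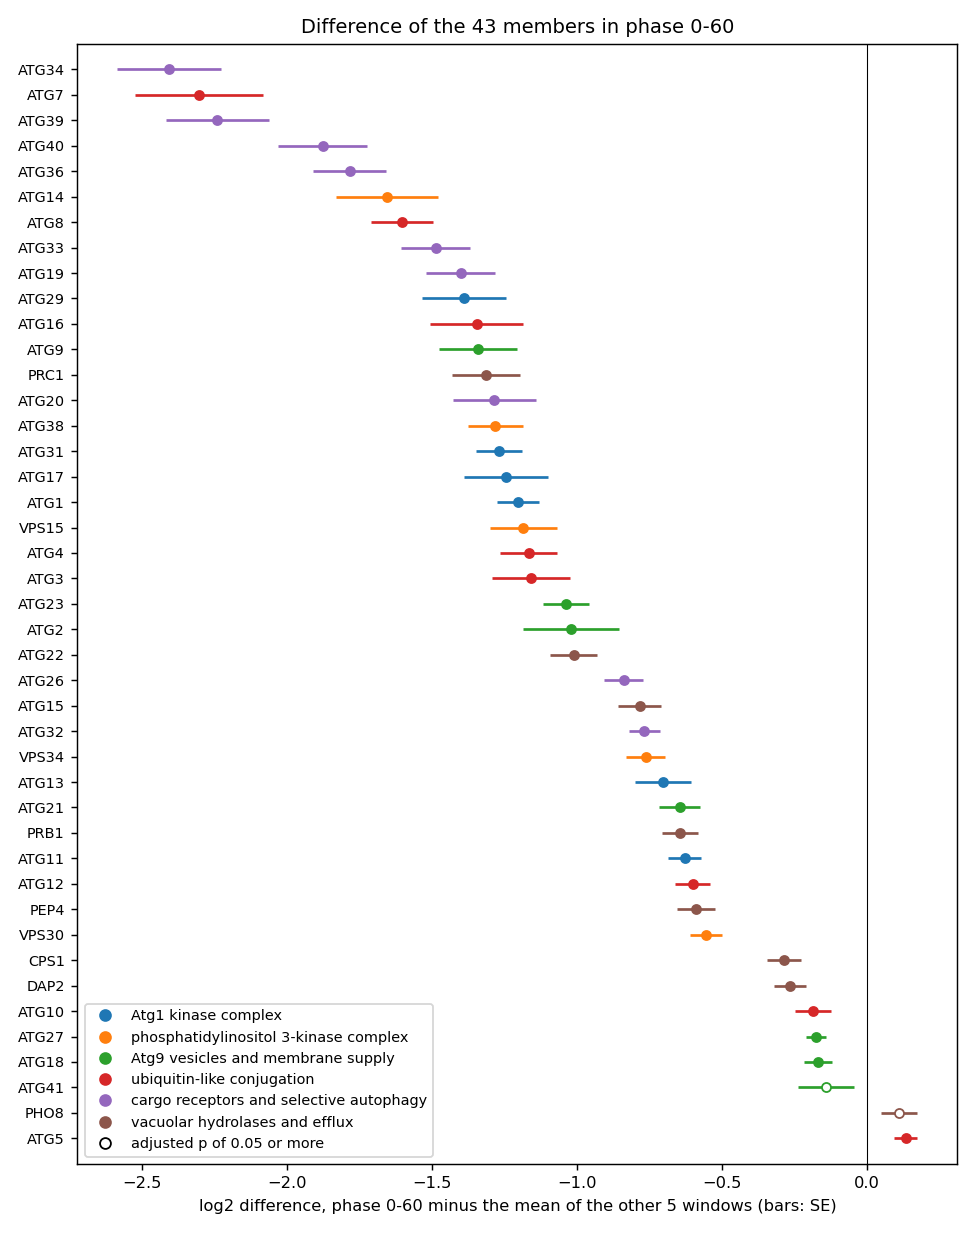
Log2 difference of phase 0-60 minus the mean of the other 5 windows (x axis) for each of the 43 genes (rows, from the largest fall at the top), with bars for the SE and colours for roles. The points run from -2.40 for ATG34 to 0.13 for ATG5, and open points mark the 2 genes that did not pass the test, ATG41 and PHO8.

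All 6 genes of the Atg1 kinase complex fell in phase 0-60, with a median log2 difference of -1.22. ATG1, the kinase that starts autophagosome formation, measured 1150.2, 1738 and 2108 in phase 0-60, against 2084, 4142 and 5045 in the other windows. The highest of its 8 samples in phase 0-60 barely passed the lowest of the others, which came right after the window. The log2 difference of ATG1 was -1.20 (SE 0.07, adjusted p = 7.33e-18), a 2.3-fold lower signal. ATG17, ATG29 and ATG31 encode the scaffold on which the complex assembles in starved cells. ATG29 measured 116, 199.9 and 423 in phase 0-60, against 353, 523 and 1030.3 in the other windows, and was 2.62-fold lower (log2 -1.39, SE 0.14, adjusted p = 8.34e-12). ATG31 measured 554, 722 and 1176 in phase 0-60, against 1449.5, 1841 and 2309 in the other windows, with no overlap between the groups, and was 2.41-fold lower (adjusted p = 1.39e-17). ATG17 measured 102, 251 and 493 in phase 0-60, against 393, 595 and 796 in the other windows, and was 2.37-fold lower (adjusted p = 1.77e-10). ATG29 and ATG17 overlapped the other windows in 1 and 3 samples, and the 3 scaffold genes fell by similar amounts. ATG13, the regulatory subunit, measured 546, 1040.5 and 1543 in phase 0-60, against 1330.1, 1628 and 1885 in the other windows, and ATG11, the scaffold of selective autophagy, measured 1362, 1597 and 2118 in phase 0-60, against 1591, 2567 and 3443 in the other windows. Their falls were the smallest of the complex, 1.63-fold (log2 -0.70, SE 0.10, adjusted p = 1.16e-08) for ATG13 and 1.55-fold (log2 -0.63, SE 0.06, adjusted p = 1.84e-13) for ATG11, and both overlapped the other windows.

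The 5 genes of the phosphatidylinositol 3-kinase complex all fell, with a median log2 difference of -1.19. ATG14, the subunit that brings the kinase to the site of autophagosome formation, measured 54.7, 255 and 489 in phase 0-60, against 505, 658 and 787 in the other windows. All 8 samples of phase 0-60 lay below the others, and the lowest was 12-fold under the median of the other windows. Its log2 difference was -1.66 (SE 0.18, adjusted p = 1.77e-11). ATG38, which joins the subunits, measured 338, 532 and 946 in phase 0-60, against 898, 1448 and 1730.1 in the other windows, a 2.43-fold lower signal (adjusted p = 8.25e-16) with 1 sample that overlapped the others. These are the subunits that are special to autophagy. The other 3 also serve vacuolar protein sorting. VPS15, the partner kinase, measured 483, 1223 and 1915 in phase 0-60, against 2026, 2553 and 2763 in the other windows, and was 2.27-fold lower (adjusted p = 1.86e-12). VPS34, the catalytic lipid kinase, measured 1201, 1727 and 2186 in phase 0-60, against 2263, 2754 and 3709.6 in the other windows, and was 1.7-fold lower (adjusted p = 1.09e-13). Neither overlapped the other windows. VPS30, the yeast relative of mammalian Beclin 1, measured 749, 1088 and 1374 in phase 0-60, against 1347, 1559.9 and 1739 in the other windows, with 7 of 8 samples below the others, and was 1.47-fold lower (adjusted p = 3.44e-12).

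Among the 7 genes of Atg9 vesicles and membrane supply 6 fell and 1 did not pass the test, with a median log2 difference of -0.65. ATG9, the membrane protein whose vesicles seed the autophagosome, measured 227, 639 and 953 in phase 0-60, against 966, 1347 and 1674 in the other windows. The groups did not overlap, and the log2 difference was -1.34 (SE 0.13, adjusted p = 3.27e-12). ATG23, needed for the traffic of Atg9, measured 452, 599 and 772 in phase 0-60, against 602, 1283 and 1412 in the other windows, a 2.05-fold lower signal (adjusted p = 2.86e-15). ATG2, a lipid transfer protein, measured 241, 1050.5 and 1611 in phase 0-60, against 1359.5, 1632 and 2041 in the other windows, a 2.03-fold lower signal (adjusted p = 3.45e-07). ATG2 spanned a wide range inside the window, so that its lowest sample was 6.78-fold under the median of the other windows. ATG21, which binds phosphatidylinositol 3-phosphate, measured 1021, 1744 and 2010.4 in phase 0-60, against 1987, 2499.7 and 3006 in the other windows, a 1.56-fold lower signal (adjusted p = 5.66e-11). The samples of ATG23, ATG2 and ATG21 that overlapped the other windows numbered 4, 2 and 1. ATG27, another factor of Atg9 traffic, measured 3128, 3474 and 3839.8 in phase 0-60, against 3199, 3951 and 4281 in the other windows, and differed by -0.18 on the log2 scale (SE 0.04, adjusted p = 1.48e-05). ATG18, the partner of Atg2, measured 679.6, 929 and 1053 in phase 0-60, against 891, 995 and 1119.6 in the other windows, and differed by -0.17 (SE 0.05, adjusted p = 0.00185). Both falls were small, and 7 samples of ATG27 and 5 of ATG18 lay inside the range of the other windows. With the values as deposited neither was called (adjusted p = 0.0814 for ATG27 and 0.243 for ATG18), nor was ATG18 with the even samples alone (adjusted p = 0.193).

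ATG41, which encodes a protein that binds Atg9, spiked and then dropped within the window. Its 8 samples in phase 0-60, in order, were 4536, 6779.6, 8009.5, 3121, 3478, 3169.6, 3465 and 3972 array units. The sample at 17.35 degrees was the highest of its 49 samples, and 5 min later the signal lay among its low values. The other windows ran from 2613 to 6608 with a median of 5163, so 2 samples of phase 0-60 exceeded all of them. The window thus held departures both ways, and the log2 difference, -0.14 (SE 0.10, adjusted p = 0.17), did not pass the test. At 17.35 degrees 17 of the 40 genes that fell, or 42.5%, had their lowest sample, against 27.8% of all probe sets that were lower in the window.

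**Figure D3:**
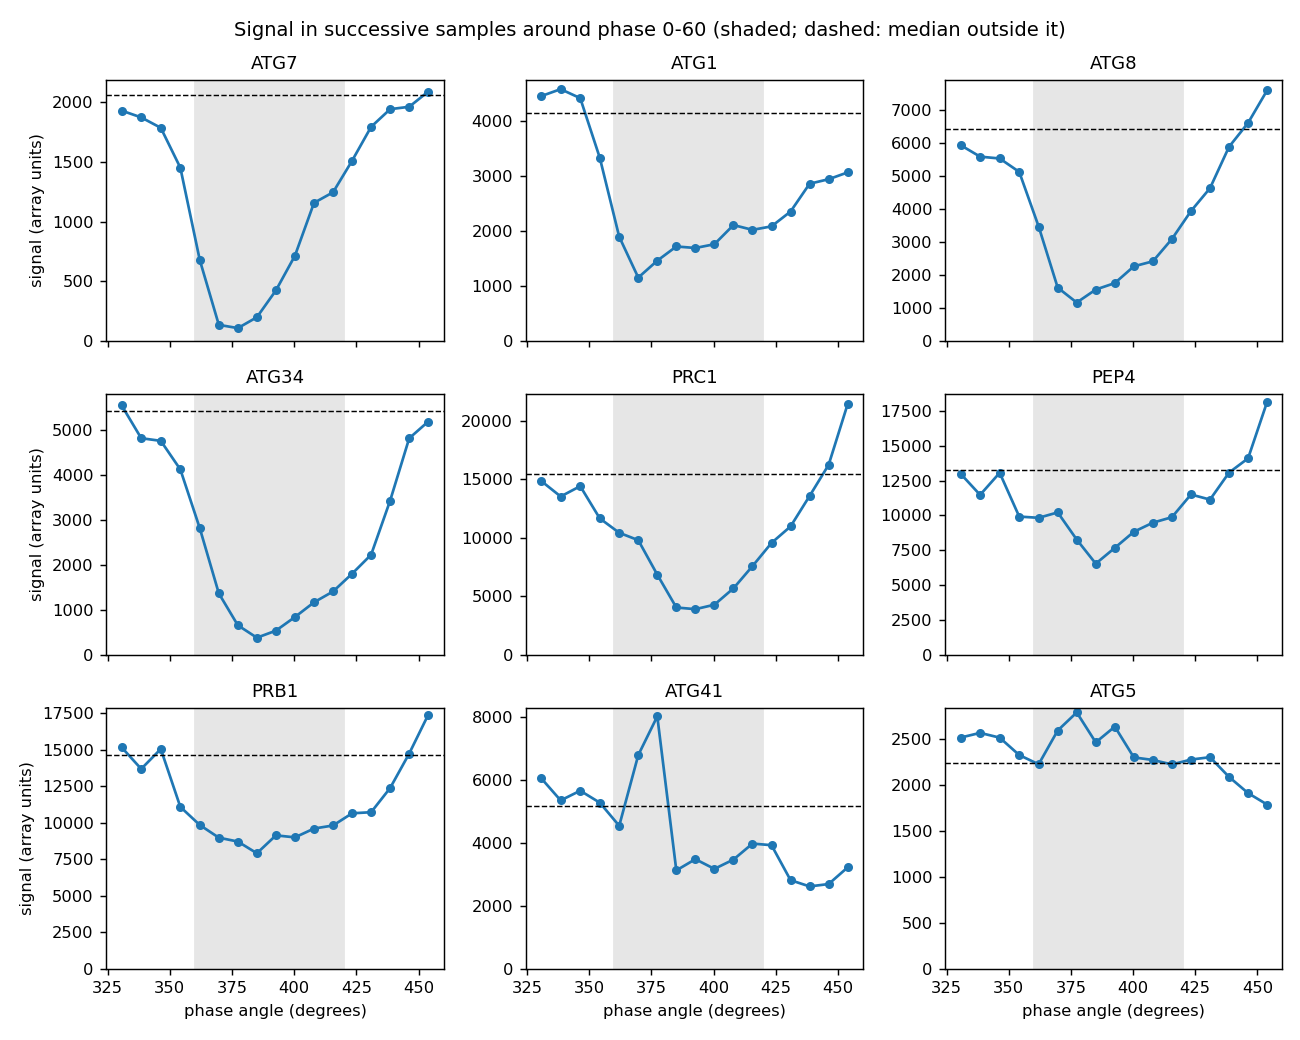
Signal in array units (y axis) in successive samples from 330.63 to 453.89 degrees (x axis, phase angle as the labels give it, 360 being phase 0) for 9 genes, with phase 0-60 shaded and the median outside it dashed. ATG7 drops to 105 and ATG34 to 379 inside the window, while ATG41 peaks at 8009.5 and ATG5 stays above 2200.

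The conjugation machinery that attaches Atg8 to lipid held the gene with the deepest dip of all. Of its 8 genes 7 fell and 1 was higher, with a median log2 difference of -1.16. ATG7, the activating (E1-like) enzyme that serves both Atg8 and Atg12, measured 105, 549.8 and 1245 in phase 0-60, against 1452, 2063 and 2444 in the other windows. All 8 samples lay below the others, and the lowest, at 17.35 degrees, was 19.6-fold under the median of the other windows. Its log2 difference was -2.30 (SE 0.22, adjusted p = 1.11e-12), a 4.93-fold lower signal. ATG8, the ubiquitin-like protein itself, measured 1158, 2003 and 3467 in phase 0-60, against 3936, 6443 and 7601 in the other windows. Again the groups did not overlap, and the log2 difference was -1.60 (SE 0.11, adjusted p = 5.18e-17). ATG3, the conjugating (E2-like) enzyme of Atg8, measured 339, 945 and 1692 in phase 0-60, against 1504, 2001 and 2622 in the other windows, a 2.23-fold lower signal (adjusted p = 2.28e-10). In ATG3 2 samples overlapped the other windows. ATG4, the protease that processes Atg8 and frees it from lipid, measured 195, 371 and 559 in phase 0-60, against 624, 809 and 921 in the other windows, a 2.24-fold lower signal with no overlap (adjusted p = 2.48e-14).

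In the branch of Atg12, the second ubiquitin-like protein, the genes differed more. ATG16, which joins the Atg12 and Atg5 conjugate into the complex that acts on Atg8, measured 27.8, 49.6 and 86.5 in phase 0-60, against 65.6, 127 and 217 in the other windows, a 2.54-fold lower signal (log2 -1.34, SE 0.16, adjusted p = 3.21e-10). ATG12 measured 436, 537 and 673 in phase 0-60, against 521, 826 and 932 in the other windows, a 1.52-fold lower signal (adjusted p = 3.92e-12). ATG10, its conjugating enzyme, measured 650.4, 881 and 1047 in phase 0-60, against 737, 982 and 1168 in the other windows, with a log2 difference of -0.18 (SE 0.06, adjusted p = 0.00551). The fall was largest in ATG16 and smallest in ATG10, and the samples of ATG16, ATG12 and ATG10 that overlapped the other windows numbered 3, 5 and 5. The call of ATG10 was lost with the values as deposited (adjusted p = 0.168), with the odd samples alone (0.158) and against the 2 neighbouring windows (0.0853). ATG5, the target to which Atg12 is joined, was the only gene of the 43 called higher. It measured 2228, 2387 and 2795 in phase 0-60, against 1791, 2239.8 and 2617 in the other windows, and differed by 0.13 on the log2 scale (SE 0.04, adjusted p = 0.00267). Its groups overlapped, with 2 of 8 samples above the highest of the others, and the call was lost with the values as deposited (log2 0.16, adjusted p = 0.137), with the odd or even samples alone (adjusted p = 0.0919 and 0.0533) and without the 5 arrays with a high TDH1 ratio (log2 0.08, adjusted p = 0.221).

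All 9 genes for cargo receptors and selective autophagy fell, with a median log2 difference of -1.49, and 7 of them by at least 2-fold. ATG39, the receptor for the nuclear envelope, measured 406, 1567 and 2704 in phase 0-60, against 2781, 6391 and 7215 in the other windows. Its 8 samples all lay below the others, the lowest 15.7-fold under the median of the other windows, and the log2 difference was -2.24 (SE 0.18, adjusted p = 4.73e-15). ATG40, the receptor for the endoplasmic reticulum, measured 395, 1144 and 1885 in phase 0-60, against 2037, 3512 and 4336 in the other windows. Its groups did not overlap either, and the log2 difference was -1.88 (SE 0.15, adjusted p = 1.27e-14). ATG36, the receptor for peroxisomes, measured 391, 737 and 1420.3 in phase 0-60, against 1907, 2564 and 3652 in the other windows, also without overlap (log2 -1.78, SE 0.13, adjusted p = 2.6e-16).

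ATG34 and ATG19 encode related receptors for alpha-mannosidase, an enzyme carried to the vacuole, and are neighbours on chromosome XV. ATG34, the receptor used in starved cells, measured 379, 1004 and 2820.4 in phase 0-60, against 1805, 5436 and 6198 in the other windows. Its log2 difference, -2.40 (SE 0.18, adjusted p = 1.09e-15), was the largest of the 43 and stood for a 5.3-fold lower signal. The first sample of the window, at 2.04 degrees, had 2820.4 and overlapped the other windows, while the other 7 did not. ATG19, which also carries aminopeptidase I in growing cells, measured 854, 1556 and 3140.2 in phase 0-60, against 3080.1, 4095 and 6079 in the other windows, a 2.64-fold lower signal (log2 -1.40, SE 0.12, adjusted p = 4.2e-14). Both genes had lost most of their signal by 17.35 degrees, but ATG19 was back above its midpoint at 40.31 degrees and ATG34 at 63.27 degrees.

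The other 4 genes of selective autophagy fell as well. ATG33, a mitochondrial protein needed for mitophagy, measured 945, 1898 and 3269.6 in phase 0-60, against 3330.1, 5322 and 7246 in the other windows, with no overlap (log2 -1.49, SE 0.12, adjusted p = 7.77e-15). ATG32, the receptor for mitochondria, measured 1084, 1277 and 1604 in phase 0-60, against 1601, 2230.2 and 2506 in the other windows, a 1.7-fold lower signal (adjusted p = 2.64e-16). Of these 2 mitophagy genes ATG33 thus had the larger difference. ATG20, a sorting nexin of selective routes, measured 298, 761 and 1465 in phase 0-60, against 1247, 1738 and 2449 in the other windows, a 2.44-fold lower signal (adjusted p = 6.48e-11). ATG20 and ATG32 each overlapped the other windows in 1 sample. ATG26, a sterol glucosyltransferase that peroxisome degradation needs in the yeast Pichia pastoris, measured 1056, 1645 and 1937 in phase 0-60, against 2123, 2689 and 3377 in the other windows, a 1.79-fold lower signal with no overlap (adjusted p = 8.49e-15).

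Vacuolar hydrolases and efflux genes fell less, with a median log2 difference of -0.62 over 8 genes, of which 7 fell and 1 did not pass the test. PEP4, proteinase A, measured 6534, 9149 and 10212 in phase 0-60, against 9913, 13227 and 18145 in the other windows. Of its 8 samples 7 lay below the others, and the log2 difference was -0.59 (SE 0.07, adjusted p = 6.9e-11), a 1.5-fold lower signal. PRB1, proteinase B, which PEP4 activates, measured 7905, 9062 and 9840.0 in phase 0-60, against 10640.0, 14602 and 17384 in the other windows. It did not overlap the other windows, although the difference was only 1.56-fold (log2 -0.64, SE 0.06, adjusted p = 1.75e-12). PRC1, carboxypeptidase Y, measured 3898, 6264 and 10433 in phase 0-60, against 9562, 15477 and 21443 in the other windows, with 6 of 8 samples below the others. Its fall, 2.49-fold (log2 -1.31, SE 0.12, adjusted p = 1.33e-13), was the largest of the group, and its lowest sample came late, at 32.66 degrees.

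ATG15, the lipase that opens the inner vesicle in the vacuole, measured 425, 606 and 754 in phase 0-60, against 792, 981 and 1482 in the other windows, a 1.72-fold lower signal without overlap (adjusted p = 4.87e-13). ATG22, which exports amino acids from the vacuole, measured 1019.5, 1235 and 1506 in phase 0-60, against 1448, 2529.9 and 3080.0 in the other windows, a 2.02-fold lower signal (adjusted p = 6.69e-15). ATG22 overlapped the other windows in 2 samples. The other 3 hydrolases had small differences. CPS1, carboxypeptidase S, measured 4688, 5363 and 6920.3 in phase 0-60, against 5171, 6891 and 8816 in the other windows, and DAP2, dipeptidyl aminopeptidase B, measured 2493, 3058 and 3759 in phase 0-60, against 3133, 3592 and 5436 in the other windows. Both overlapped the other windows, with log2 differences of -0.29 (SE 0.06, adjusted p = 2.15e-05) for CPS1 and -0.26 (SE 0.06, adjusted p = 3.01e-05) for DAP2, and the call of DAP2 was lost with the values as deposited (adjusted p = 0.0507) and without the 5 arrays with a high TDH1 ratio (adjusted p = 0.0726). PHO8, vacuolar alkaline phosphatase, measured 3094, 4187 and 4962 in phase 0-60, against 3257, 3726 and 5169.5 in the other windows. Its samples within the window were lowest first, at 3094, and highest at 4962, and its difference did not pass the test (log2 0.11, SE 0.06, adjusted p = 0.0954).

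The 5 min spacing gave an order within the dip for this 1 culture. Each time point had 1 array and no replicate, and differences in timing between genes were not tested. For each of the 40 genes that fell, a midpoint was taken on the log2 scale between its median outside phase 0-60 and its lowest sample. The last sample before the window, at 354.23 degrees, had no gene below its midpoint. The number below was 10 at 2.04 degrees, 34 at 9.7, 39 at 17.35, 37 at 25, 30 at 32.66, 18 at 40.31, 14 at 47.97 and 10 at 55.62 degrees. After the window it was 7 at 63.27, 5 at 70.93, 1 at 78.58 and 0 at 86.24 degrees. Later 1 gene, CPS1, was below again, in 5 samples from 116.85 to 155.12 degrees. The median of all 43 genes, relative to each gene's own median outside the window, was -0.28 on the log2 scale at 354.23 degrees, -0.68 at 2.04, -1.24 at 9.7, -1.47 at 17.35 and -1.27 at 25 degrees, and it was -0.42 at 55.62 degrees. The median over all probe sets stayed between -0.15 and 0.03 in the window.

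For each gene the start, end and length of the dip were read from the unbroken run of samples below the midpoint that holds the lowest sample. The run began at 9.7 degrees in 25 of the 40, or 62.5%, against 34.2% of the 2207 probe sets that were lower in the window and had such a run, and at 2.04 degrees in 9 of the 40, or 22.5%, against 33.8%. It began at 17.35 degrees in ATG33, PEP4, PRC1 and DAP2, at 25 in CPS1 and at 40.31 degrees in ATG27. The last 2 had been below before their run, CPS1 at 2.04 degrees and ATG27 at 17.35 and 25 degrees. The run ended most often at 40.31 degrees, in 13 genes or 32.5%, against 21.3% of those probe sets. The lowest sample lay at 9.7 degrees in 9 genes, among them ATG1, ATG3, ATG4, ATG13 and ATG40. It lay at 17.35 degrees in 17, among them ATG7, ATG8, ATG9, ATG14 and ATG39, and at 25 degrees in 9, among them ATG31, ATG34, ATG36, PEP4 and PRB1. For ATG12, ATG23 and PRC1 it lay at 32.66 degrees, and for CPS1 and ATG27 at 40.31 degrees. The shares at 9.7, 17.35 and 25 degrees were 22.5%, 42.5% and 22.5% of the 40 genes, against 27.7%, 27.8% and 14.5% of the 2364 probe sets lower in the window.

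The run below the midpoint lasted 15 min in 9 genes, 20 min in 12 and 25 min in 8, with a median of 20 min for the 40 genes and for all probe sets lower in the window. It was longest in ATG22 and PRB1, at 50 min, in ATG1 and ATG11, at 45 min, and in ATG23, at 40 min. In ATG10, ATG21 and VPS30 the run ended earliest, at 25 degrees, but ATG10 was below its midpoint again at 70.93 and 78.58 degrees. Samples outside the run lay below the midpoint in 4 genes, 2 of them in ATG10, 1 in ATG12, 2 in ATG27 and 6 in CPS1. The activating enzyme ATG7 and the conjugating enzyme ATG3 were back above their midpoints at 40.31 and 32.66 degrees, but their substrate ATG8 at 55.62 degrees. A deeper dip sets a lower midpoint, which was 466.55 array units for ATG7 and 2731.5 for ATG8. At 40.31 degrees ATG7 had 713.6, against a median outside the window of 2063, and ATG8 had 2257.6, against 6443. The order of these ends therefore does not show that ATG7 regained its usual level sooner than ATG8. ATG1 was back only at 70.93 degrees and ATG11 at 78.58 degrees, the kinase and the scaffold of selective autophagy being later than ATG13, which was back at 32.66 degrees, and ATG17 and ATG29, at 40.31 degrees.

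**Figure D4:**
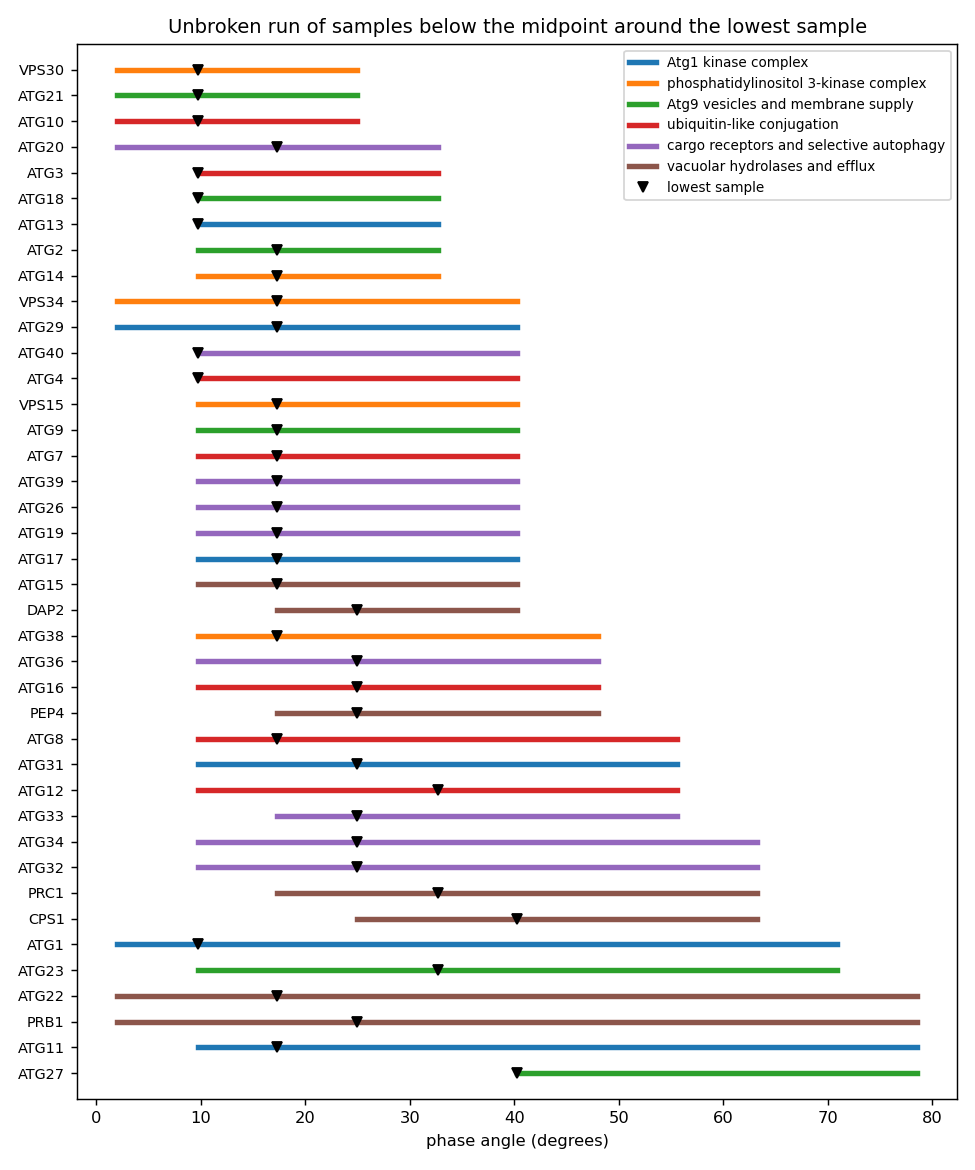
For each of the 40 genes lower in phase 0-60 (rows), a line over the unbroken run of samples below its midpoint that holds the lowest one, from its first sample to the first sample back above (x axis, phase angle in degrees), with a triangle at the lowest sample and colours for roles. Most lines begin at 9.7 degrees, whereas their ends spread from 25 degrees for VPS30, ATG21 and ATG10 to 78.58 degrees for ATG22, PRB1, ATG11 and ATG27.

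Outside phase 0-60 the window means of most of the 43 genes lay close together. With that window left out, 21 of 43 genes differed between the other 5 windows (limma F test, 39 samples), or 48.8% of them, against 74.5% of all probe sets. The median log2 range of their window means was 0.24, against 0.36 for all probe sets. With the values as deposited 7 genes passed, namely ATG1, ATG11, ATG20, ATG29, ATG34, ATG41 and DAP2. At that setting 2417 of all 5470 probe sets passed, against 4076 with scaled values. ATG8, whose signal fell 3.04-fold in phase 0-60, had a log2 range of 0.13 over the other windows (adjusted p = 0.708), and PRC1 had 0.08 (adjusted p = 0.964).

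The genes with the widest range outside phase 0-60 followed different courses. The mean of ATG41 was 4566 ± 1834 in phase 0-60, 3124 ± 508 in 60-120, 4734 ± 499 in 120-180, 4997 ± 302 in 180-240, 5611 ± 435 in 240-300 (SD, n = 8 each) and 5921 ± 526.5 in 300-360 (SD, n = 7). Its lowest window was the one after the dip of the others, and the range was 1.91-fold (adjusted p = 6.18e-13). ATG1 averaged 1725 ± 308, 2918 ± 485, 3910.1 ± 356, 4114 ± 275, 4459 ± 224 and 4478 ± 547 array units in the same 6 windows. Its return thus ran on through several windows, with a range of 1.55-fold outside phase 0-60 (adjusted p = 3.38e-08). ATG11 averaged 1626 ± 238, 1985 ± 248, 2321 ± 208, 2578 ± 146, 2884 ± 112 and 2856 ± 296 in that order, with a range of 1.46-fold (adjusted p = 3.11e-09). The kinase and the scaffold of selective autophagy shared this slow course.

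ATG29 and ATG20 had their highest window right after the dip. The mean of ATG29 was 226 ± 104 in phase 0-60, 744 ± 214 in 60-120, 572 ± 139 in 120-180, 524 ± 85.3 in 180-240, 492 ± 65.9 in 240-300 (SD, n = 8 each) and 465 ± 80.5 in 300-360 (SD, n = 7), and its range outside phase 0-60 was 1.56-fold (adjusted p = 0.0019). ATG20 averaged 812 ± 391, 2094 ± 403, 1923 ± 244, 1724 ± 264, 1683 ± 155 and 1496 ± 169 in the same order, a range of 1.38-fold (adjusted p = 0.00219). ATG34 averaged 1147 ± 776, 4261 ± 1554, 5240.2 ± 319, 5492 ± 219.5, 5712 ± 388 and 5274 ± 703, a range of 1.45-fold (adjusted p = 0.0159), and the low end of it, phase 60-120, held its late return. DAP2 had a mean of 3110.5 ± 420.2 in phase 0-60, against 4542 ± 755 in phase 60-120 (n = 8 each), its highest window, where the difference from the other windows was 0.38 on the log2 scale (SE 0.06, adjusted p = 8.2e-08).

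**Figure D5:**
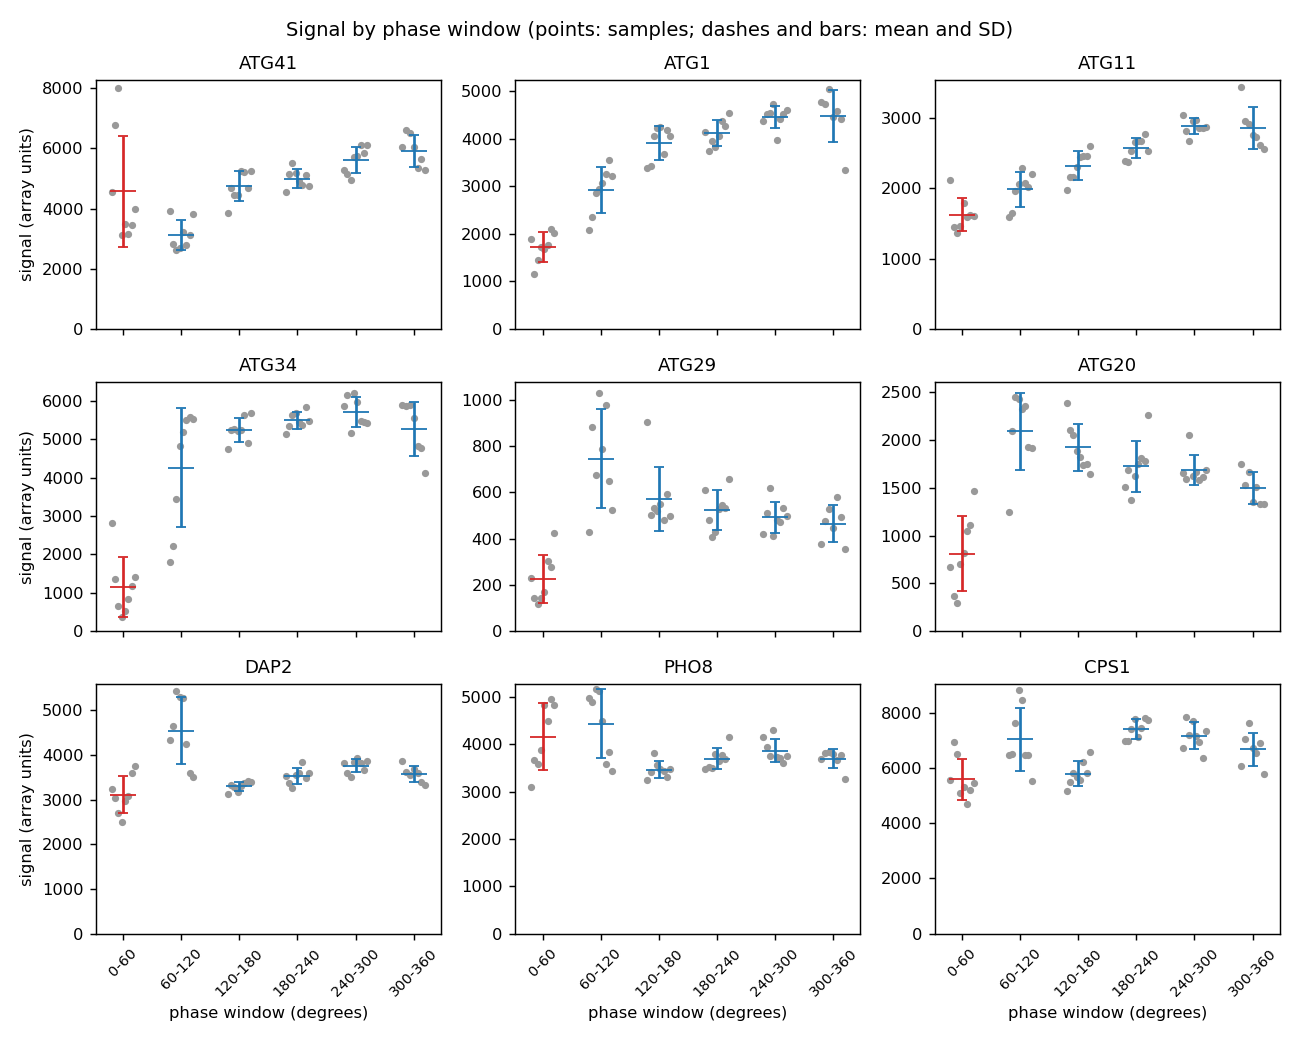
Signal in array units (y axis) by phase window (x axis, degrees) for 9 genes, with a point per sample and the mean and SD as a dash and bar, phase 0-60 in red. ATG1 and ATG11 climb over several windows, ATG29, ATG20 and DAP2 are highest in phase 60-120, and ATG41 is lowest there.

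In the single windows the counts followed the dip, since the mean of the other windows holds the low phase 0-60. In phase 60-120 19 genes were higher and 5 lower, against 38.2% and 30.6% of all probe sets, the lower ones being ATG1, ATG5, ATG10, ATG11 and ATG41. Phase 120-180 had 13 higher and 4 lower, against 20.7% and 22.3%, and phase 180-240 had 9 higher and 0 lower, against 7.9% and 6.84%. The 4 lower in phase 120-180 were ATG5, CPS1, DAP2 and PHO8. Phase 240-300 had 23 higher and 0 lower, against 14.5% and 14.4%, and phase 300-360 had 10 higher and 0 lower, against 12.4% and 13.8%. The counts of 0 lower were also 0 at an unadjusted p under 0.05 in limma. With the values as deposited the higher counts were 10, 1, 0, 4 and 3 for these 5 windows in order, and the lower counts were 3 in phase 60-120 and 0 in phase 120-180. Of all 5470 probe sets 1432, 365, 82, 166 and 390 were higher at that setting, in the same order. Lower probe sets then numbered 1330 in phase 60-120 and 585 in phase 120-180.

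A cosine of the phase angle, tested over all 49 samples, was called in 42 of 43 genes, against 88.5% of all probe sets. The gene not called was DAP2 (R2 0.015, adjusted p = 0.717), whose low and high windows are neighbours. The median fitted log2 peak-to-trough difference was 0.78, against 0.54 for all probe sets. The cosine described the short dip poorly, with an R2 from 0.015 for DAP2 to 0.670 for ATG11, and without the 8 arrays of phase 0-60 it was called in 23 genes, or 53.5%, against 75.7% of all probe sets.

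The second pass gave values at about the phase of the first 2 samples, 1 cycle later, and no test was made on 2 samples against 2. ATG8 had 6440.0 and 6479 array units in the second pass and 6815 and 5803 in the first 2 samples. ATG1 had 4648 and 4411 in the second pass and 4372 and 4511 in the first 2 samples. The log2 difference of second pass minus first samples ran from -0.15 for ATG3 to 0.24 for ATG16, with a median of 0.03. The median size of the difference was 0.05 in the 43 genes and 0.06 in all probe sets. Both second-pass samples lay above both first samples in 8 genes, or 18.6%, against 17.5% of all probe sets, and below both in 5, or 11.6%, against 14.5%.

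Over the 49 samples most of the 43 genes had similar profiles. The correlation of a gene with the mean of the other 42, a description over samples that share a culture and neighbouring times, had a median r of 0.89 and was at least 0.9 in 19 genes. It was under 0.5 in 4, namely ATG5 (-0.46), PHO8 (-0.14), ATG41 (0.05) and CPS1 (0.49). Outside the set, the genes whose log2 profile was most like the mean profile, among 5385 genes over 49 samples, were RTC3 (r = 0.991), YDL199C (0.990), MBR1 (0.988), YHR140W (0.987), SYM1 (0.986), YPF1 (0.985), ATH1 (0.985) and FMP33 (0.985). RTC3 measured 354, 1336 and 4162 in phase 0-60, against 5794, 11200.0 and 17150.0 in the other windows. ATH1 encodes acid trehalase, an enzyme that degrades trehalose, and measured 1146, 2215 and 3416 in phase 0-60, against 3436, 6613 and 8032 in the other windows.

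Of other genes of the vacuole and of autophagy, hydrolases, cargo and protease inhibitors fell as the set did. All 8 such genes measured were lower in phase 0-60, against 43.2% of all probe sets. Their median log2 difference was -1.39, against -0.03 for all probe sets. PAI3, the inhibitor of proteinase A, measured 412, 726 and 3816 in phase 0-60, against 1021, 5690.0 and 7402 in the other windows, a 6.15-fold lower signal (log2 -2.62, SE 0.25, adjusted p = 9.84e-13). AMS1, alpha-mannosidase, the cargo of ATG19 and ATG34, measured 581, 1699 and 4175 in phase 0-60, against 3627, 7234 and 9009 in the other windows, a 4.76-fold lower signal (adjusted p = 1.17e-14). TFS1, an inhibitor of carboxypeptidase Y, had a log2 difference of -1.93 (SE 0.15, adjusted p = 3.12e-15). Both log2 differences were larger in size than those of the targets PEP4 and PRC1, a contrast that was not tested. APE1, aminopeptidase I, the cargo of ATG19, measured 1278, 2634 and 5083 in phase 0-60, against 4151, 5444 and 7207 in the other windows, a 2.15-fold lower signal (adjusted p = 9.67e-11).

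Of 17 autophagy factors with other names 10 were lower, 4 higher and 3 did not pass the test in phase 0-60, where 43.2% of all probe sets were lower and 39.8% higher, with a median log2 difference of -0.35. The largest changes were in SNX4 (-1.36, SE 0.15), the sorting nexin that pairs with Atg20, in SNX41 (-1.39, SE 0.15), another partner of Snx4, and in CUE5 (-1.06, SE 0.09), a ubiquitin-binding receptor. Of 16 genes of vacuole fusion and docking 10 were lower, 1 higher and 5 not called, with a median of -0.29. NYV1 (-1.003) and VTI1 (-0.78), both SNARE proteins, and MON1 (-0.76), which activates the Rab protein Ypt7, changed most. Of 17 ESCRT genes, which sort membrane proteins into the vacuole, 12 were lower and 0 higher, with a median of -0.35, led by SRN2 (-0.87), DOA4 (-0.71) and DID4 (-0.60). Genes of the vacuolar ATPase, the pump that acidifies the vacuole, were not lower. Of its 18 genes 0 were lower, 5 were higher and 13 did not pass the test, with a median log2 difference of 0.08, and 4 and 7 were higher with the values as deposited and with quantile normalization. At an unadjusted p under 0.05 in limma 0 ATPase genes were lower and 0 ESCRT genes higher. The largest changes in the ATPase list were in PKR1 (0.91, SE 0.08), an assembly factor, and in the subunits VMA7 (0.57, SE 0.07) and VMA10 (0.40, SE 0.05).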

How the data were processed

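RNA was amplified from oligo(dT) primers, labelled with biotin and hybridised to 49 arrays, per the labels' protocols. The deposited table gives 1 intensity per probe set, not on a log scale, and GCOS produced it, per the submitters' processing notes. Neither the version of GCOS nor its scaling is given in the sources used here. Of 10928 probe sets 5498 had 1 S. cerevisiae gene in the platform annotation, 1746 a gene of another yeast species, 1 several genes and 3683 no gene. Symbols in this annotation can be old, and probes follow a reference sequence that may differ from CEN.PK.

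Each array was set to the same median over the S. cerevisiae probe sets, 1890.55, a floor of 1 was applied, and log2 values were analysed. Probe sets were tested if their median exceeded 11.2, the level that 75% of probe sets for another species stay under, which left 5470 probe sets of 5428 genes. Each test used lmFit and eBayes of limma 3.58.1 in R 4.3.3 with Benjamini-Hochberg adjustment at 0.05. The tests were a cosine and sine of the phase over all 49 samples, each window against the mean of the other 5 over 47 samples, and an F test over the 5 windows outside phase 0-60 over 39 samples. The number of arrays limits the precision.

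The genes, gene lists, windows and tests were chosen with earlier results of these data known, among them that phase 0-60 held the largest change. All 43 genes could be named. PEP4, PRB1, ATG8, ATG1, the 8 largest falls and every rise in phase 0-60, the 6 widest ranges outside it and genes not called for cycling were described in full. From each list the 3 called genes with the largest difference were named, and outside the set the 8 genes most like its mean profile. APE1 was added after its values were seen. Of 11 genes listed as vacuolar hydrolases, cargo and inhibitors 8 were used.

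On simulated data with 50 of 5470 probe sets at each fold and independent noise, the phase 0-60 test recovered 56% at 1.25-fold, 92% at 1.5-fold and 100% at 2-fold, with 10 of 5270 unchanged probe sets called. At 1.5-fold the cosine fit recovered 84% and the test outside phase 0-60 82%. In the data the samples are successive ones of 1 culture, and 43.2% of probe sets were called lower and 39.8% higher in phase 0-60. The simulation differs from the data in both respects, so its counts do not give the error rate here. Alternatives were the values as deposited, quantile normalization, other filters, an added 50 array units, linear terms in array number and time, 2 harmonics and subsets of samples. Leaving out the arrays with a high TDH1 ratio was added after the data were seen. Summaries and plots used pandas 2.3.3, numpy 2.4.6 and matplotlib 3.10.9 in Python 3.11.15.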

Additional observations from a re-analysis of the deposited data

Results flagged for a closer look

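In 258 groups, 43 genes in 6 windows, 1 sample stood far from the rest of its window, with a gap to the nearest sample above Dixon's 95% critical value, in 18 cases. Chance flags about 1 in 20 groups, here 12.9. The last sample before the dip, at 354.23 degrees, was the lowest of its window in 6 of them: ATG1 with 3334 array units (nearest other sample 4421), ATG4 with 624.0 (749), ATG19 with 3080.0 (3779), ATG26 with 2173 (2481), ATG40 with 2404 (3386) and PHO8 with 3264 (3682). The sample right after the window, at 63.27 degrees, was the lowest of phase 60-120 for ATG9 with 966 (1193), ATG20 with 1247 (1916) and VPS15 with 2026 (2430.0). ATG34 was highest in phase 0-60 in its first sample, at 2.04 degrees, with 2820.0 (1409). At 124.51 degrees ATG17 was highest in phase 120-180 with 733 (624) and ATG29 with 903 (592.5). At 201.05 degrees ATG21 was highest in phase 180-240 with 2651 (2424) and ATG31 lowest with 1548 (1724). In phase 240-300 ATG20 was highest with 2056 (1691) at 259.84 degrees and ATG40 with 4336 (4025) at 267.71 degrees. PEP4 was lowest in phase 120-180 with 11260.0 (13010.0) at 170.43 degrees, and PHO8 was highest in phase 180-240 with 4163 (3798) at 239.32 degrees. Their causes were not tested.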

How the results depend on the processing

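The count of genes lower in phase 0-60 was 36 to 41 over all alternatives run, against 40. The median log2 difference was -1.10 to -0.98 except without the arrays with a high TDH1 ratio, where it was -0.78. Genes higher in phase 0-60 numbered 0, not 1, with the values as deposited, with every second sample from either start and without those arrays. The log2 difference of ATG41 was 0.01 against the 2 neighbouring windows and 0.065 without the arrays with a high TDH1 ratio, and that of PHO8 was -0.004 without them. With the values as deposited ATG10 (log2 -0.16, adjusted p = 0.168), ATG18 (-0.15, 0.243), ATG27 (-0.15, 0.0814), ATG5 (0.16, 0.137) and DAP2 (-0.24, 0.0507) were no longer called in phase 0-60, against -0.18, -0.17, -0.18, 0.13 and -0.26. ATG10 also lost its call with odd samples and against the neighbouring windows, and ATG18 with even samples, whereas ATG41 was called lower with quantile normalization (adjusted p = 0.0425). The cosine was called in 42 genes, or 97.7%, against 88.5% of all probe sets. With the values as deposited it was called in 35, or 81.4%, against 78%. Without the arrays with a high TDH1 ratio it was also called in 35, or 81.4%, against 81.1%. With every second sample it was called in 34 and 33, or 79.1% and 76.7%, against 71.6% and 69.9%. Without the 8 arrays of phase 0-60 it was called in 23, and in 4140 of 5470 probe sets, against 4841. Outside phase 0-60, 7 genes were called with the values as deposited, 13 and 10 with every second sample from either start, and 21 to 28 under the other alternatives. As deposited, phase 60-120 had 10 higher and 3 lower, phase 120-180 1 and 0, and phases 180-240, 240-300 and 300-360 had 0, 4 and 3 higher. In phase 60-120 the values as deposited gave 1432 higher and 1330 lower of 5470 probe sets, against 2088 and 1673. With quantile normalization phase 120-180 had 25 higher, and 1490 of 5470 probe sets were higher there. Over all probe sets, the values as deposited gave 365 higher and 585 lower in phase 120-180, against 1132 and 1221, then 82 and 62 in phase 180-240, against 432 and 374, 166 and 316 in phase 240-300, against 795 and 788, and 390 and 144 in phase 300-360, against 681 and 756. They gave 2417 called outside phase 0-60, against 4076, and quantile normalization gave 681 lower in phase 180-240. The causes of these differences were not tested. No paired analysis was possible because the replicate numbers only name successive samples of 1 culture. Signal over background was smallest for ATG16, with a median of 127 outside phase 0-60 against 6.2 for probe sets of another species.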

Other observations

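A list of 20 genes held the TORC1 kinase complex, which holds autophagy back in fed cells, its regulators, and SCH9, NPR1, TAP42 and SIT4 of the same pathway. Of the 20 genes 13 were lower in phase 0-60, 5 were higher and 2 did not pass the test. Their median log2 difference was -0.15, against -0.03 for all probe sets, of which 43.2% were lower and 39.8% higher. The largest changes were in LST8, a subunit of the complex, with -0.78 (SE 0.06, adjusted p = 4.56e-15), in GTR1, a small GTPase that activates it, with 0.49 (SE 0.11, adjusted p = 5.11e-05), and in TOR2, a kinase, with -0.44 (SE 0.04, adjusted p = 1.71e-14). LST8 measured 1360.0, 1977 and 2489 in phase 0-60, against 2780.0, 3218 and 4149 in the other windows, with no overlap between the groups.

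Of 19 transcription regulators linked to ATG genes 6 were lower, 5 were higher and 8 did not pass the test, with a median log2 difference of -0.02. Over all probe sets 43.2% were lower and 39.8% higher, so calls were no more frequent in this list than on the whole array. GIS1, a regulator of stationary phase genes, measured 400.3, 1546 and 2509 in phase 0-60, against 2485, 4221 and 7044 in the other windows, a 3.39-fold lower signal (log2 -1.76, SE 0.18, adjusted p = 1.19e-11). RIM15, the kinase upstream of GIS1, measured 401, 641 and 952 in phase 0-60, against 889, 1369 and 1745 in the other windows, a 2.11-fold lower signal (log2 -1.08, SE 0.09, adjusted p = 1.78e-14). BAS1, a regulator of purine and histidine synthesis, went the other way, with a log2 difference of 1.11 (SE 0.18, adjusted p = 4.43e-07), and measured 1002, 2637 and 4990.0 in phase 0-60, against 264, 1287 and 2317 in the other windows.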
